A study of Mus musculus with 6 samples.

Results

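The vitamin D and phosphate axis of the kidney was followed through 8 genes: Cyp24a1, Cyp27b1, Vdr, Gc, Slc34a1, Slc34a3, Slc20a2 and Kl. They were chosen by gene symbol, and each symbol had a single entry among the 32285 genes of the count matrices. Frozen sections of mouse kidney were assayed on 10x Genomics Visium slides, whose barcoded spots capture RNA of the overlying tissue. There were 6 libraries, with 1 library per group, so no difference could be set against the spread between animals and no test was run. The Alport syndrome (AS) mice (B6.Cg-Col4a5tm1Yseg) carried an allele of Col4a5, the X-linked gene of a type IV collagen chain of basement membranes, in all cells of the animal. The groups were early treated 5m AS, next late treated 5m AS, both from 5-month AS mice given hEV, then untreated 5m AS, untreated 2m AS at 2 months, the mixed library and WT. The mixed library held a wild-type female and a heterozygous female, 2 animals in 1 library, and is the group whose sex the labels give, so sex may differ between it and the others. WT was of the B6C57 strain. The sources used here gave neither the age of WT, nor the dose and dates of hEV, nor what early and late stand for.

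Vitamin D is activated in the kidney. Its liver-made precursor calcidiol circulates on the carrier protein encoded by Gc, is taken up by the proximal tubule with that carrier, and is converted to the hormone calcitriol by the enzyme of Cyp27b1. The enzyme of Cyp24a1 starts the breakdown of both calcidiol and calcitriol, and calcitriol acts through the nuclear receptor encoded by Vdr, for which Cyp24a1 is a classical target gene. Phosphate is taken back from the filtrate in the proximal tubule by the sodium-phosphate cotransporters of Slc34a1 (NaPi-IIa) and Slc34a3 (NaPi-IIc), with a smaller part for the type III transporter of Slc20a2. Kl encodes klotho, the co-receptor through which the bone hormone FGF23 lowers phosphate uptake, lowers Cyp27b1 and raises Cyp24a1, while parathyroid hormone raises Cyp27b1.

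Since Vdr binds DNA at hexamer half-sites, the promoters of the genes are shown with those hexamers, and the repeat of them in Slc34a1, in capitals. RefSeq (GRCm38.p6) promoter windows, 250 bases before to 50 after the annotated start and read 5′ to 3′ on the gene's strand, were found for 6 of the 8 genes, Cyp24a1 and Slc20a2 being the others. The half-sites searched on both strands were AGGTCA, its variant AGTTCA, the variant GGGTCA and the variant GGTTCA, and 43.7% of 32851 promoters of the same length held at least 1. The 4 windows printed are those of both type II phosphate cotransporters, of the activating enzyme and of the carrier, which held between 0 and 2 such hexamers. They lie at chr13:55399398-55399697 on the plus strand for Slc34a1, chr2:25234185-25234484 on the minus strand for Slc34a3, chr10:127047996-127048295 on the plus strand for Cyp27b1 and chr5:89457849-89458148 on the minus strand for Gc.
Slc34a1: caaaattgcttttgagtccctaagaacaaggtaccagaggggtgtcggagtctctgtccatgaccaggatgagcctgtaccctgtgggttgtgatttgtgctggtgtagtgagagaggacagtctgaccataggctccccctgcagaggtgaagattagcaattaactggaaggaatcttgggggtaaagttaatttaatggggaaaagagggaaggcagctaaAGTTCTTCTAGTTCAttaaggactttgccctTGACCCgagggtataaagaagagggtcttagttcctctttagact
Slc34a3: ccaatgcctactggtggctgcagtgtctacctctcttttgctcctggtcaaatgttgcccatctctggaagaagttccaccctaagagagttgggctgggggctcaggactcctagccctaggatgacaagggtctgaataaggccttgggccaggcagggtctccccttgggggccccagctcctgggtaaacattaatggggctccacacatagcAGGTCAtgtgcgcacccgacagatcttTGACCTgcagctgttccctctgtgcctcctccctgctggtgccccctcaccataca
Cyp27b1: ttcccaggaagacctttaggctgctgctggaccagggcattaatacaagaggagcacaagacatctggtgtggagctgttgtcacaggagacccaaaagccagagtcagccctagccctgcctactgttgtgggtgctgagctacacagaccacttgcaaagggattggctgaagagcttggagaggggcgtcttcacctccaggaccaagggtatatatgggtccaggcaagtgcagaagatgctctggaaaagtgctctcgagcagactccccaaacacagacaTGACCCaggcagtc
Gc: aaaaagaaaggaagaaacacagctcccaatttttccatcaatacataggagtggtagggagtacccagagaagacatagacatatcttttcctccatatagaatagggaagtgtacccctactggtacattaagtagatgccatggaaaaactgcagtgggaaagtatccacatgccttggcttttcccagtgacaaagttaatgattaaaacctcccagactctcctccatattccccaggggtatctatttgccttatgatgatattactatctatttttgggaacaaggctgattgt
Slc34a1 held a direct repeat of half-sites with 3 bases between them, the arrangement preferred by Vdr with its partner receptor, starting at base 225 of the 300-base window and with 1 mismatch over its 12 hexamer positions. A repeat with at most 1 mismatch was found in 1.73% of all promoters, and one with at most 3 mismatches in 77.1%. The Slc34a1 window also held GGGTCA on the opposite strand at base 256. Slc34a3 held AGGTCA at base 218 and again on the opposite strand at base 245, and Cyp27b1 held GGGTCA on the opposite strand at base 287. Vdr and Kl each held 1 half-site, at bases 160 and 158, and the Gc window held none. These are matches of letters and are not evidence of binding.

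**Figure D1:**
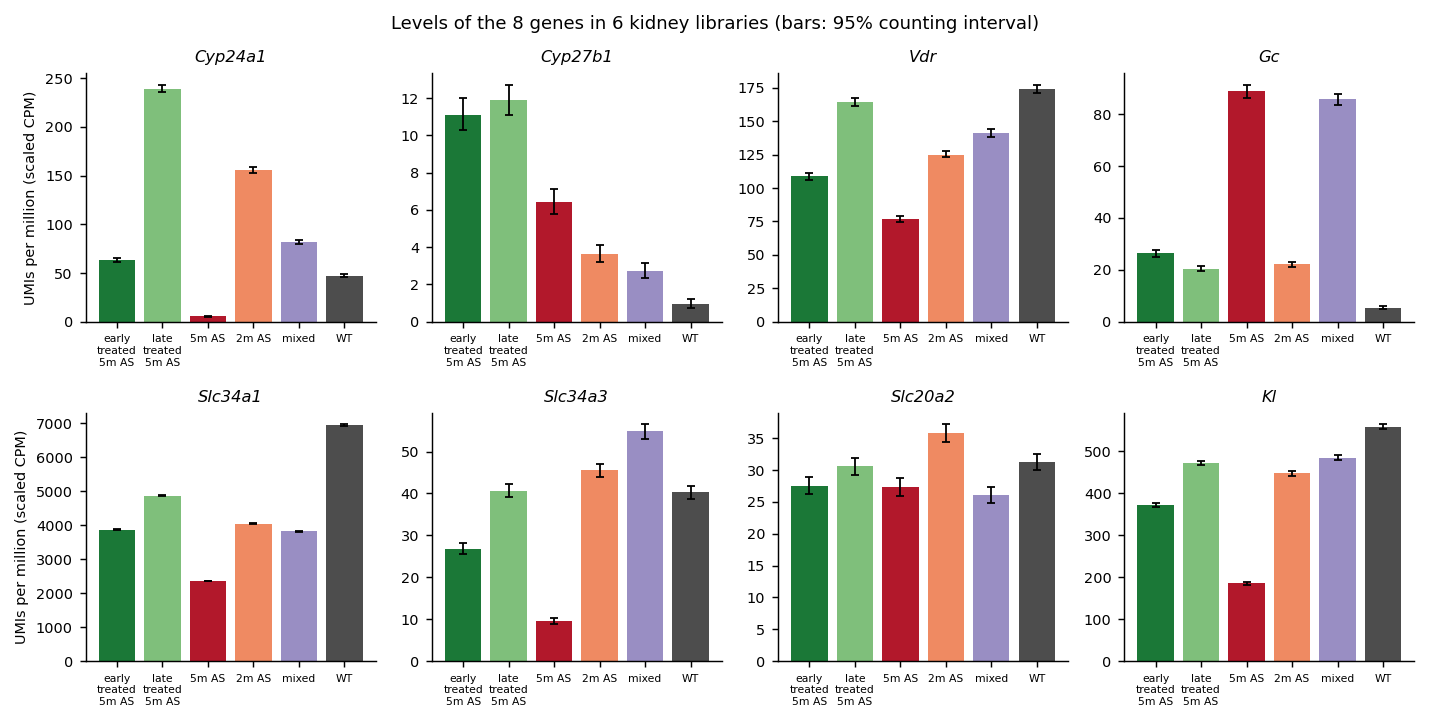
Level of each of the 8 genes in the 6 libraries, in scaled CPM, the UMI counts scaled to the effective library size, on an axis of its own for each gene. Bars start at 0 and the error bars are 95% exact Poisson intervals, which cover counting error only. 5m AS has the lowest bar for Cyp24a1, Vdr, Slc34a1, Slc34a3 and Kl, and the highest for Gc.

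The libraries held between 48940875 and 91976637 UMIs on 1997 to 4093 spots, with a median of 12736 to 28433 UMIs per spot. Levels are given as scaled CPM and compared within a gene only, since 3′ capture does not make genes comparable with each other. Space Ranger 1.2.1 was used for 5m AS and WT, and version 1.3.1 for all others. Of the 9 comparisons made, 5m AS against WT and early against late treated 5m AS were within 1 version, and in the others group and version cannot be told apart. The Col4a5 level was 5.52 in the early treated library, 5.57 in the late treated library, 3.39 in 5m AS, 6.54 in 2m AS, 13.2 in the mixed library and 11.9 in WT. The counted 3′ ends need not lie in the altered part of that gene. Early proximal tubule markers, a list of 12 genes such as Slc5a2 and Slc6a19, summed to 3396, 3803, 2152, 3973, 5301 and 4364 scaled CPM in the same order of libraries, and none was at 0. Injured tubule markers, 10 genes such as Havcr1 and Lcn2, summed to 5777, 3038, 7760, 1663, 3237 and 1508, of which the list's member Spp1 alone gave 4230, 2225, 6202, 1176, 2387 and 665. Fewer cells of a type and less RNA per cell cannot be told apart in such sums.

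Cyp24a1 had the widest spread of the 8 genes. Cyp24a1 (ENSMUSG00000038567, mm10 chr2:170482708-170497145, minus strand) was at 63.4 scaled CPM in the early treated library, 239 in the late treated library, 5.65 in 5m AS, 156 in 2m AS, 81.4 in the mixed library and 47.1 in WT. The order from high to low was late treated 5m AS, 2m AS, mixed, early treated 5m AS, WT and 5m AS, and the 95% counting intervals of no pair of neighbours overlapped. In 5m AS the gene rested on 335 UMIs, against 11477 in 2m AS and 3219 in WT. Its level in 5m AS was 0.12 times that in WT (95% counting interval 0.107 to 0.134), whereas the level in 2m AS was 3.31 times that in WT (3.18 to 3.44). Between the 2 ages of untreated AS mice, the ratio of 5m AS to 2m AS was 0.0363 (0.0324 to 0.0404). Late treated 5m AS had 42.4 times the level of 5m AS (38.0 to 47.4) and early treated 5m AS 11.2 times (10.0 to 12.6). Early treated was in turn at 0.265 of late treated 5m AS (0.256 to 0.275), the comparison in which both libraries were treated and had the same Space Ranger version. With the mixed library in place of WT, the log2 ratio of 2m AS was 0.94, against 1.73 with WT, and that of early treated 5m AS was -0.36, against 0.43 with WT.

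Cyp27b1, the activating enzyme, followed another order. Cyp27b1 (ENSMUSG00000006724, chr10:127048250-127053006, plus strand) was at 11.1 scaled CPM in the early treated library, 11.9 in the late treated library, 6.43 in 5m AS, 3.64 in 2m AS, 2.72 in the mixed library and 0.936 in WT. All 3 libraries of 5m AS, treated or not, were above the other 3, and the counting intervals of the early and late treated libraries overlapped. These are low counts, with 381 UMIs in 5m AS and 64 in WT. In 5m AS the activating enzyme was thus higher and the degrading enzyme lower than in WT, while in late treated 5m AS both were higher than in WT. The level was 6.87 times that of WT in 5m AS (5.26 to 9.09), 11.9 times in early treated 5m AS (9.19 to 15.6) and 12.7 times in late treated 5m AS (9.82 to 16.6). With the mixed library in place of WT these ratios were smaller, at log2 1.24 against 2.78 in 5m AS, 2.03 against 3.57 in early treated and 2.12 against 3.66 in late treated 5m AS, and that of 2m AS was 0.42 against 1.96. Both WT and 2m AS stayed under the 5 scaled CPM required for the counts of changed genes, so the ratio of 3.89 between them (2.95 to 5.19) was not counted. Against 5m AS, the ratio was 1.73 in early treated (1.52 to 1.97) and 1.85 in late treated 5m AS (1.63 to 2.09).

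Vdr, the calcitriol receptor, varied less. Vdr (ENSMUSG00000022479, chr15:97854425-97910630, minus strand) was at 109 scaled CPM in the early treated library, 164 in the late treated library, 76.9 in 5m AS, 125 in 2m AS, 141 in the mixed library and 174 in WT. 5m AS was the lowest library and WT the highest, with a ratio of 0.442 between them (0.427 to 0.457). Late treated 5m AS had 2.13 times the level of 5m AS (2.06 to 2.21) and 0.943 times that of WT (0.919 to 0.968), a log2 ratio of -0.08 that was 0.22 with the mixed library in place of WT. Early treated 5m AS had 1.41 times the level of 5m AS (1.36 to 1.47), short of 1.5-fold.

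Gc, the carrier of calcidiol, was highest in 5m AS and in the mixed library. Gc (ENSMUSG00000035540, chr5:89417522-89457898, minus strand) was at 26.4 scaled CPM in the early treated library, 20.5 in the late treated library, 88.8 in 5m AS, 22.1 in 2m AS, 85.7 in the mixed library and 5.35 in WT. The counting intervals of 5m AS and the mixed library overlapped, and so did those of 2m AS and late treated 5m AS. The ratio to WT was 16.6 in 5m AS (14.9 to 18.5), 16.0 in the mixed library (14.4 to 17.8) and 4.12 in 2m AS (3.68 to 4.63). Against 5m AS, it was 0.298 in early treated (0.281 to 0.315) and 0.231 in late treated 5m AS (0.217 to 0.245). The direction against a control depended on which control was used: with the mixed library in place of WT the log2 ratio turned to -1.70 for the early treated library, -2.07 for the late treated library and -1.96 for 2m AS, and was 0.05 for 5m AS. Gc is best known as a product of the liver. Hepatocyte markers, of which 7 of 8 symbols were found, summed to 364, 238, 631, 543, 234 and 385 scaled CPM from early treated 5m AS to WT, with 0 to 2 of them at 0 in a library. Alb alone was at 2.97, 2.80, 3.29, 4.58, 17.1 and 6.17 scaled CPM in the same order, highest in the mixed library, where the sum was lowest. The sum is not specific to liver RNA, since over 1992 spots of 5m AS it correlated with Slc34a1 at r = 0.60. The part of liver RNA in the Gc level was not tested.

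Slc34a1, the main phosphate cotransporter of the proximal tubule, was lower in every other library than in WT. Slc34a1 (ENSMUSG00000021490, chr13:55398187-55415592, plus strand) was at 3865 scaled CPM in the early treated library, 4860 in the late treated library, 2358 in 5m AS, 4044 in 2m AS, 3816 in the mixed library and 6946 in WT. The ratio to WT was 0.339 in 5m AS (0.337 to 0.341), 0.582 in 2m AS (0.58 to 0.585) and 0.549 in the mixed library (0.547 to 0.552). Late treated 5m AS had 2.06 times the level of 5m AS (2.05 to 2.07) and early treated 5m AS 1.64 times (1.63 to 1.65). With the mixed library in place of WT, the log2 ratio was 0.02 for early treated 5m AS, 0.35 for late treated 5m AS and 0.08 for 2m AS, so the lower level in these 3 libraries was relative to WT alone.

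Slc34a3, the second type II cotransporter, was lowest in 5m AS. Slc34a3 (ENSMUSG00000006469, chr2:25228898-25234364, minus strand) was at 26.8 scaled CPM in the early treated library, 40.7 in the late treated library, 9.5 in 5m AS, 45.5 in 2m AS, 54.8 in the mixed library and 40.3 in WT. The counting intervals of late treated 5m AS and WT overlapped. The ratio to WT was 0.236 in 5m AS (0.215 to 0.258) and 1.13 in 2m AS (1.07 to 1.19). The log2 ratio with the mixed library in place of WT was -0.27 for 2m AS, against 0.18 with WT, and -0.43 for late treated 5m AS, against 0.02 with WT. The ratio to 5m AS, not in log2, was 2.82 in early treated (2.56 to 3.12) and 4.29 in late treated 5m AS (3.91 to 4.70).

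Slc20a2, the type III transporter, was the flattest of the 8 genes. Slc20a2 (ENSMUSG00000037656, chr8:22476788-22569612, plus strand) was at 27.5 scaled CPM in the early treated library, 30.6 in the late treated library, 27.3 in 5m AS, 35.8 in 2m AS, 26.1 in the mixed library and 31.3 in WT. None of its 9 ratios reached 1.5-fold, the lowest being 0.763 for 5m AS over 2m AS (0.717 to 0.812) and the highest 1.14 for 2m AS over WT (1.08 to 1.21). Its log2 ratio turned from negative with WT to positive with the mixed library, at 0.08 for early treated, 0.23 for late treated and 0.07 for untreated 5m AS.

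Kl, which encodes klotho, was lowest in 5m AS and highest in WT. Kl (ENSMUSG00000058488, chr5:150952607-150993817, plus strand) was at 371 scaled CPM in the early treated library, 471 in the late treated library, 185 in 5m AS, 447 in 2m AS, 485 in the mixed library and 558 in WT. The ratio to WT was 0.331 in 5m AS (0.324 to 0.338), and 0.801 in 2m AS (0.789 to 0.813). Late treated 5m AS had 2.55 times the level of 5m AS (2.5 to 2.61) and early treated 5m AS 2.01 times (1.96 to 2.05).

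Counted over the 8 genes, 5m AS differed most from WT. Of the 8, Cyp27b1 and Gc were at least 1.5-fold higher in 5m AS than in WT, where 11.9% of all genes with at least 5 scaled CPM in either library were, and 5 (Cyp24a1, Vdr, Slc34a1, Slc34a3 and Kl) were at least 1.5-fold lower, where 12% of all genes were. The median log2 ratio of the 8 genes was -1.37, and that of all genes -0.12. At 2 months, Cyp24a1 and Gc were higher than in WT, with 7.78% of all genes, and Slc34a1 was lower, with 8.28% of all genes. These counts are over the 7 genes past the minimum, which left out Cyp27b1. In 5m AS against 2m AS, Cyp27b1 and Gc were higher, with 16.9% of all genes, and Cyp24a1, Vdr, Slc34a1, Slc34a3 and Kl were lower, with 19.6% of all genes. These comparisons share the 5m AS, 2m AS and WT libraries and are not independent of each other.

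**Figure D2:**
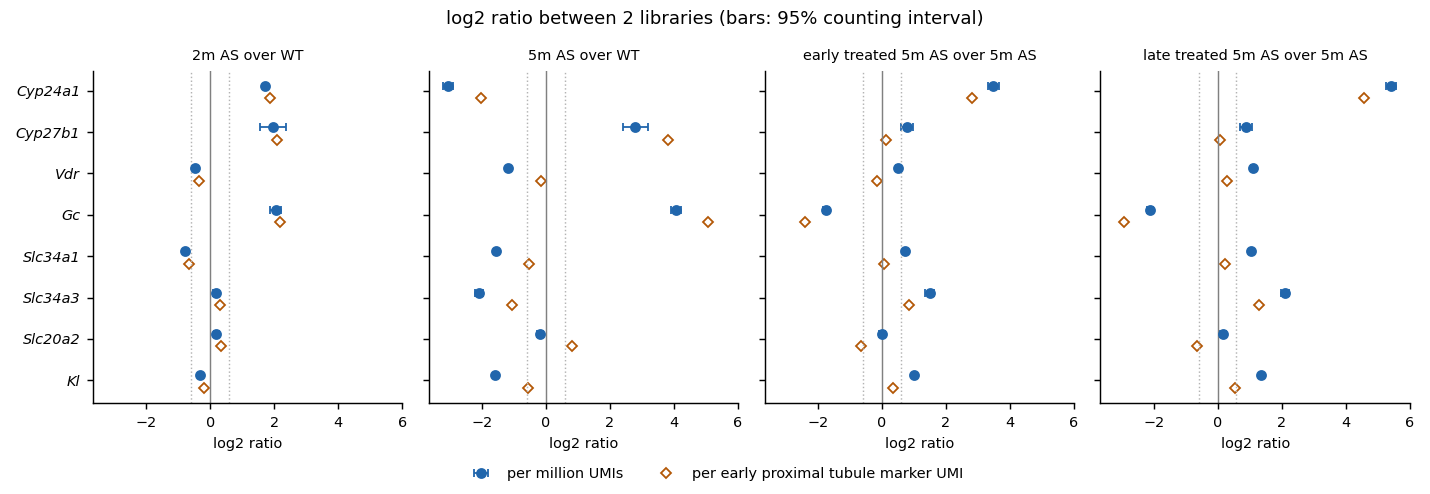
log2 ratios of the 8 genes in 4 comparisons. Filled circles are ratios of scaled CPM with 95% counting intervals, open diamonds are ratios of the gene's UMIs per UMI of the early proximal tubule markers, and dotted lines mark 1.5-fold. In 5m AS over WT the diamonds of Vdr, Slc34a1 and Kl lie within 1.5-fold of 0, while those of Cyp24a1 and Slc34a3 remain lower and those of Cyp27b1, Gc and Slc20a2 higher.

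Against untreated 5m AS, both treated libraries had higher levels of most of these genes and less Gc. In early treated 5m AS, 5 genes were at least 1.5-fold higher (Cyp24a1, Cyp27b1, Slc34a1, Slc34a3 and Kl), where 3.98% of all genes were, and Gc was lower, where 4.86% were. In late treated 5m AS 6 genes were higher (those just named and Vdr), where 7.94% of all genes were, and Gc was lower, where 11.1% were. The median log2 ratio of the 8 genes was 0.75 in early and 1.07 in late treated 5m AS, beside -0.01 and -0.03 over all genes. Averaged within regions of like spots, 2 genes rather than 5 were at least 1.5-fold higher in early treated 5m AS. Early against late treated, 3 genes were lower (Cyp24a1, Vdr and Slc34a3), where 2.02% of all genes were, and no gene of the 8 was higher, where 3.70% of all genes were.

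The levels of Vdr, Gc, Slc34a1 and Kl in both treated libraries lay between those of 5m AS and WT. In early treated 5m AS, Cyp27b1 and Gc were higher, with 9.07% of all genes, and Vdr, Slc34a1, Slc34a3 and Kl were lower, with 10.4% of all genes. With plain CPM, none of these 4 was past 1.5-fold. In late treated 5m AS, Cyp24a1, Cyp27b1 and Gc were higher, with 7.19% of all genes, and no gene of the 8 was lower, with 11.6% of all genes. The mixed library differed from WT too: Cyp24a1 at 1.73 (1.66 to 1.81) and Gc were higher, with 7.87% of all genes, and Slc34a1 was lower, with 8.61% of all genes, 7 of the 8 genes, all but Cyp27b1, being past the minimum. The mixed library and WT differ in Space Ranger version and in the heterozygous animal, and possibly in sex and age, which cannot be told apart.

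The early proximal tubule marker sum was lowest in 5m AS, as were several of these genes, so each gene was also set against it. Early proximal tubule markers were at 2152 scaled CPM in 5m AS and 4364 in WT. Per 1000 UMIs of these markers, Slc34a1 had 1095 UMIs in 5m AS and 1592 in WT, a ratio of 0.688, and Vdr had 35.7 in 5m AS and 39.9 in WT, a ratio of 0.896. Kl, known mainly from the distal convoluted tubule, had 85.8 in 5m AS and 128 in WT, a ratio of 0.670. The distal convoluted and connecting tubule markers were also lower, with a sum of 6202 scaled CPM in 5m AS and 17013 in WT, and their part in the Kl level was not tested. Cyp24a1 stayed apart, with 2.63 per 1000 in 5m AS and 10.8 in WT, a ratio of 0.243, as did Slc34a3, with 4.41 in 5m AS and 9.23 in WT, a ratio of 0.478. Cyp27b1 had 2.99 in 5m AS and 0.215 in WT, a ratio of 13.9, and Gc had 41.2 in 5m AS and 1.23 in WT, a ratio of 33.6. Slc20a2, flat in scaled CPM, had 12.7 in 5m AS and 7.17 in WT, a ratio of 1.77. Per marker UMI, the ratio of 5m AS to 2m AS was 0.0669 for Cyp24a1, 0.385 for Slc34a3 and 0.762 for Kl. It was 1.14 for Vdr and 1.08 for Slc34a1, so these were not lower in 5m AS than in 2m AS on this scale. Cyp27b1 was at 3.26, Gc at 7.43 and Slc20a2 at 1.41.

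On the same scale, Cyp24a1 and Slc34a3 were at least 1.5-fold higher in both treated libraries than in 5m AS. Cyp24a1 had 18.7 UMIs per 1000 marker UMIs in the early treated library, 63.0 in the late treated library and 2.63 in 5m AS, ratios of 7.12 and 24.0. Slc34a3 had 7.90 in the early treated library, 10.7 in the late treated library and 4.41 in 5m AS. Slc34a1 differed by 1.04-fold and 1.17-fold and Cyp27b1 by 1.10-fold and 1.04-fold from 5m AS, less than their 1.64-fold, 2.06-fold, 1.73-fold and 1.85-fold differences in scaled CPM. Gc had 7.78 in the early treated library, 5.38 in the late treated library and 41.2 in 5m AS, and Slc20a2 had 8.10, 8.03 and 12.7 in that order, both lower in the treated libraries. The part that the amount of proximal tubule plays in these levels was not tested.

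**Figure D3:**
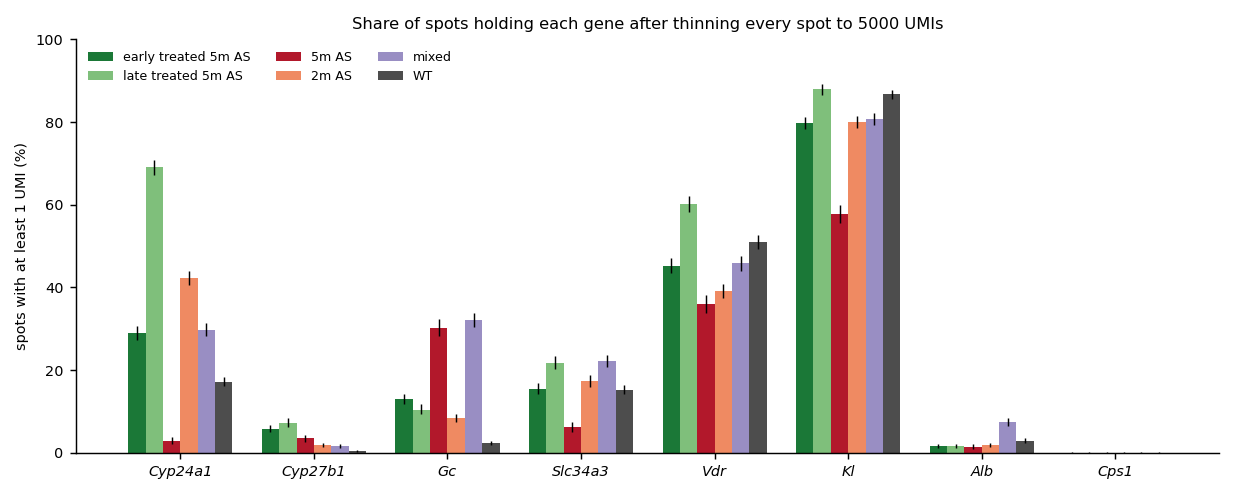
Percent of spots with at least 1 UMI of a gene after every spot was thinned to 5000 UMIs, in the 6 libraries. Error bars are 95% exact binomial intervals over spots. Cyp24a1 was found in 69.1% of spots of late treated 5m AS and in 2.95% of those of 5m AS, while Cps1, a liver gene, was at most at 0.0377%.

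Over spots, Cyp24a1 was widespread in late treated 5m AS and sparse in 5m AS. After thinning every spot to 5000 UMIs, which left out between 65 and 626 shallower spots per library, it was found in 29.0% of spots in the early treated library, 69.1% in the late treated library, 2.95% in 5m AS, 42.3% in 2m AS, 29.8% in the mixed library and 17.2% in WT. As deposited, without thinning, the shares were 48.9%, 90.2%, 13.9%, 77.1%, 61.1% and 46.7% in that order. A spot can hold several cells, so these are shares of spots. Albumin (Alb), a liver gene, was found in 1.68%, 1.62%, 1.45%, 1.83%, 7.52% and 2.91% of thinned spots in the same order of libraries, and the liver enzyme gene Cps1 in at most 0.0377%.

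Cyp27b1 was found in few spots of any library. It was found in 5.85% of thinned spots in the early treated library, 7.24% in the late treated library, 3.47% in 5m AS, 1.83% in 2m AS, 1.55% in the mixed library and 0.497% in WT. In 2m AS, the mixed library and WT this was not above the share for Alb. Gc was found in 13.0%, 10.4%, 30.2%, 8.36%, 32.2% and 2.31% of thinned spots from early treated 5m AS to WT, so in WT it too was not above Alb. Kl was found in 79.8%, 87.9%, 57.7%, 80.1%, 80.8% and 86.7% of thinned spots in the same order, and Slc34a1 in at least 98.2% in each library.

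Spots were grouped into 16 regions without use of the 8 genes or of the related lists. Region 1 was led by the early proximal tubule genes Slc5a12, Slc6a19 and Slc5a2, region 3 by Klk1, Slc26a4 and Atp6v1g3 of the distal nephron, and region 9 by the injury genes Havcr1, Ccl2 and Lcn2. Regions 4, 6, 12 and 14 had late proximal tubule genes among their leading genes, and 435 of the 448 spots of region 12 came from 5m AS, so that region may be that library. Levels are given for regions of at least 50 spots in a library, leaving out region 13, whose median spot had 1231 UMIs.

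Cyp24a1 was highest in region 1 in 5 of the 6 libraries. There it was at 130 scaled CPM in the early treated library, 413 in the late treated library, 6.31 in 5m AS, 339 in 2m AS, 175 in the mixed library and 74.3 in WT. In 5m AS the highest level was in region 9, the injury-led one, at 11.3 scaled CPM from 96 UMIs. The contrast between regions was widest in 2m AS, where region 14, led by Cyp7b1 and Mettl7a2, was at 8.90 scaled CPM, 38.1-fold below region 1. Of the 405 spots of region 14, 284 came from 2m AS, and only 2m AS and WT had at least 50 there. In WT region 14 was at 8.96, from 10 UMIs. Cyp27b1 was likewise highest in region 1 in 5 libraries, with 22.7 in the early treated library, 26.5 in the late treated library, 17.0 in 5m AS, 9.70 in 2m AS and 6.12 in the mixed library. In WT its highest level rested on 9 UMIs.

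**Figure D4:**
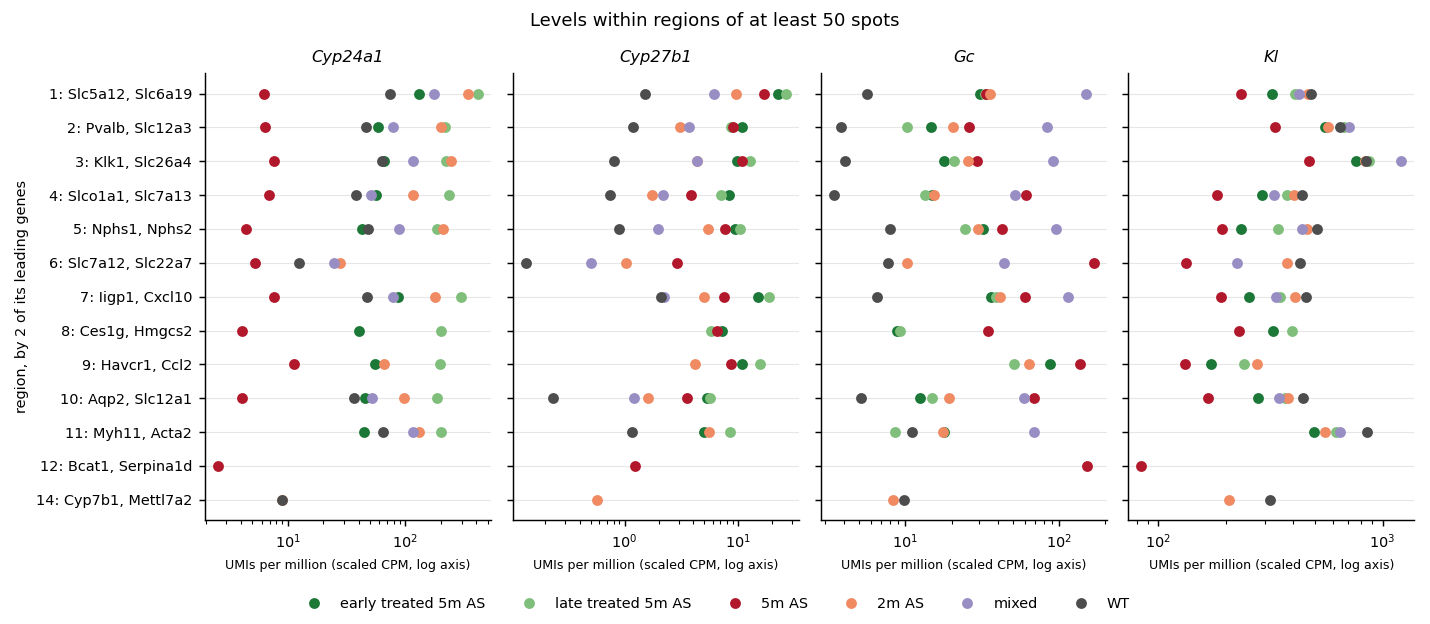
Levels of Cyp24a1, Cyp27b1, Gc and Kl by region, for regions of at least 50 spots in a library and at least 1 UMI of the gene, on log axes of scaled CPM. Each row is a region named by a pair of its leading genes and each point a library. The points of 5m AS lie leftmost for Cyp24a1 in each region that 5m AS shares with other libraries, and rightmost for Gc in regions 4, 6, 8, 9 and 10.

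In most libraries the type II transporters were highest in a proximal region, and Vdr and Kl in a distal one. Slc34a1 was highest in region 1 in 6 of 6 libraries, at 5787 scaled CPM in the early treated library, 6582 in the late treated library, 4249 in 5m AS, 6126 in 2m AS, 5841 in the mixed library and 8529 in WT. Slc34a3 was highest there in 5 of 6 libraries, and in 5m AS it was highest in region 3, at 20.5 against 20.1 in region 1. Its lowest level in 2m AS was 4.22 in region 14, against 92.8 in region 1, and in 5m AS it was 1.5 in region 12. Kl was highest in region 3 in 5 libraries, at 762 in the early treated library, 872 in the late treated library, 470 in 5m AS, 836 in 2m AS and 1214 in the mixed library. Vdr was highest in region 3 in those same 5 libraries, at 136 in 5m AS and 245 in the mixed library, and its lowest levels in the 4 AS libraries were in region 9, at 70.8, 113, 56.0 and 76.1 from early treated 5m AS to 2m AS. In WT, Kl and Vdr were highest in region 11, led by genes such as Myh11 and Acta2. Kl was at 855 there and 846 in region 3, and Vdr at 238 and 218. Slc20a2 had no constant place, and its highest region was at most 2.03-fold above its lowest in any library.

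Gc was highest in the injury-led region in 3 of the 4 AS libraries. In region 9 it was at 87.3 scaled CPM in the early treated library, 50.9 in the late treated library, 138 in 5m AS and 63.6 in 2m AS. In 5m AS it was higher still in region 6, at 168 scaled CPM, and at 152 in region 12. In the mixed library it was highest in region 1, at 150, among regions of at least 50 spots. Region 9 had 30 spots in the mixed library, with Gc at 180 (143 to 222) from 85 UMIs. The place of Gc in that library thus depended on the minimum number of spots. The tenth of spots richest in injured tubule markers held 25% of the Gc UMIs in the early treated library, 19.4% in the late treated library and 20.8% in 5m AS, where it held 7.74%, 7.86% and 9.76% of all UMIs. It held 9.98% in 2m AS, 7.29% in the mixed library and 7.38% in WT, where it held 7.52%, 8.58% and 9.90% of all UMIs. These spots are not alike between libraries, since the tenth held 16.1% of the Kl UMIs in 2m AS, 27.4% in the mixed library and 20.2% in WT, but between 6.09% and 10.4% in the 3 libraries of 5m AS. The part of tubule injury in the Gc level was not tested.

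Within regions, the Cyp24a1 differences mostly had the direction found in the whole libraries. Among regions with at least 20 spots in both libraries, it was lower in 5m AS than in WT in 9 of 9, with log2 ratios from -3.54 to -1.19, and higher in late treated 5m AS than in 5m AS in 12 of 12, from 3.87 to 6.01. Early treated 5m AS was above 5m AS in 12 of 12 regions, from 1.80 to 4.35. These 12 regions include the shallow region 13, where 25 spots of 5m AS held 0 Cyp24a1 UMIs. The ratio there rests on the 0.5 UMIs added to each count. It was higher than in WT in 10 of 11 regions of 2m AS, and in 7 of 9 regions of early treated 5m AS. Slc34a1 and Kl were lower in 5m AS than in WT in 9 of 9 regions, from -2.05 to -0.98 and from -1.69 to -0.85, and Cyp27b1 and Gc were higher in 9 of 9. These 9 regions held 980 of the 1997 spots of 5m AS. The regions left out include 8, 9 and 12, with 229, 310 and 435 spots in 5m AS. WT had 3, 6 and 2 spots in them, so the injury-led region was not compared with WT. Regions of a library share its section and are not replicates. Of the Cyp24a1 UMIs, the tenth of spots richest in early proximal tubule markers held 15.6% in the early treated library, 14.9% in the late treated library, 9.25% in 5m AS, 20.5% in 2m AS, 15.4% in the mixed library and 13.8% in WT, where it held between 6.95% and 8.80% of all UMIs. The tenth richest in injured tubule markers held 16.4% of them in 5m AS, beside 9.76% of all UMIs, and between 4.38% and 10.5% in the other libraries. In 5m AS the tenth richest in macrophage markers, 8 genes such as Lyz2 and C1qa, held 15.2%, beside 7% of all UMIs. The injured tubule list was thus not singled out, and these shares rest on 55 and 51 UMIs.

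Genes around the axis were counted in 5 lists. Of the vitamin D enzymes and transport list, 6 of the 8 genes past the minimum were at least 1.5-fold lower in 5m AS than in WT and none was higher, beside 12% of all genes lower and 11.9% higher. Lrp2, which encodes megalin, the uptake receptor for the vitamin D carrier, was at 545 scaled CPM in 5m AS and 1051 in WT, a ratio of 0.518 (0.512 to 0.525), and Cubn, its partner cubilin, was at 146 scaled CPM in 5m AS and 263 in WT. The median log2 ratio of this list was -0.79, beside -0.12 over all genes. Early proximal tubule markers summed to 2152 scaled CPM in 5m AS and 4364 in WT, and their part in the levels of this list was not tested. In early and late treated 5m AS, Dab2, an adaptor of megalin, was the single gene of this list past 1.5-fold against 5m AS, at 277 in early treated, 337 in late treated and 183 in untreated 5m AS. Of the receptor complex list, 1 of 8 was lower in 5m AS than in WT, a share close to the 12% of all genes. It was Rxra, which encodes the partner receptor of Vdr, at 62.7 in 5m AS and 103 in WT. None of that list was past 1.5-fold in either treated library against 5m AS.

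The calcium response list held genes that differed in either direction. In 5m AS, 3 of 12 genes were higher than in WT, beside 11.9% of all genes, and 5 were lower, beside 12%. S100g, which encodes the vitamin D dependent calcium-binding protein calbindin-D9k, was at 1144 scaled CPM in 5m AS and 5839 in WT, a ratio of 0.196 (0.194 to 0.197). Spp1, which encodes osteopontin and is also one of the injured tubule markers, had 6202 scaled CPM in 5m AS and 665 in WT, 9.33-fold higher (9.24 to 9.42). Early treated 5m AS had 5 of 12 genes higher than 5m AS and 2 lower, beside 3.98% and 4.86% of all genes, with S100g at 3438 in early treated and 1144 in untreated 5m AS. Late treated 5m AS had 6 of 12 higher and 3 lower, beside 7.94% and 11.1% of all genes, with Calb1, which encodes calbindin-D28k of the distal tubule, at 560 in late treated and 165 in untreated 5m AS, 3.40-fold (3.32 to 3.48). Cldn19, a claudin of the thick ascending limb, was at 12.2 in early treated, 11.9 in late treated and 37.1 in untreated 5m AS. Thick ascending limb markers summed to 3063, 3092 and 4988 scaled CPM in that order, and their part in the Cldn19 level was not tested. Distal convoluted and connecting tubule markers, where S100g and Calb1 are mainly made, summed to 9984 in early treated, 8325 in late treated and 6202 in untreated 5m AS and to 17013 in WT, and their part in these levels was not tested.

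**Figure D5:**
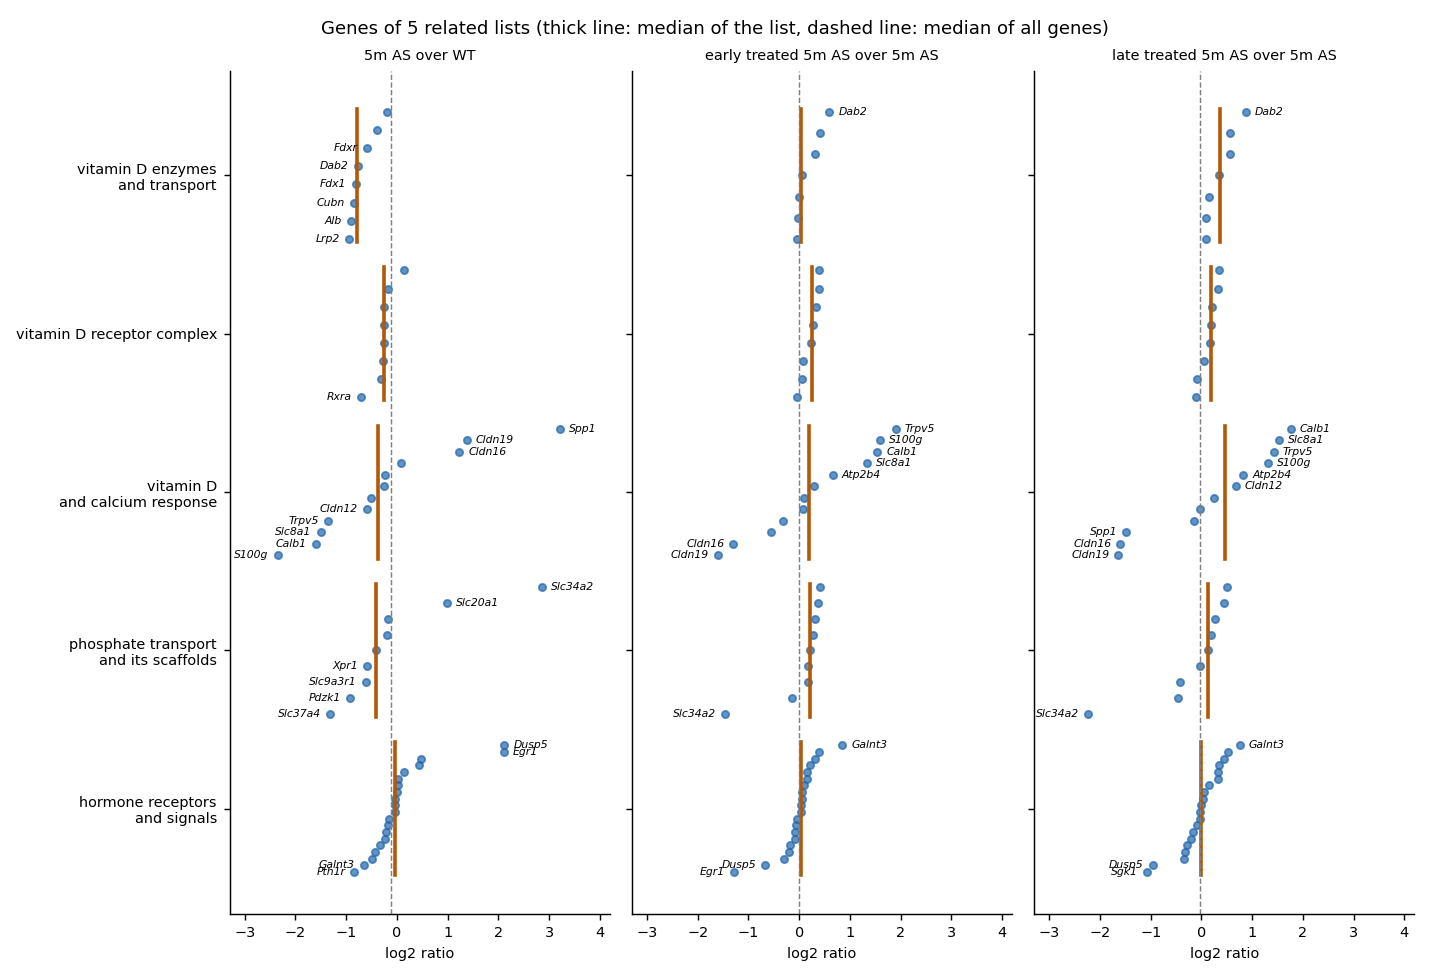
log2 ratios of the genes of 5 related lists with at least 5 scaled CPM in either library, in 5m AS over WT and in early and late treated 5m AS over 5m AS. Points are genes, spread vertically by rank, and named where past 1.5-fold. S100g, Calb1, Slc8a1 and Trpv5 lie on the lower side in 5m AS over WT and on the higher side in both treated comparisons, and Spp1, Cldn16 and Cldn19 lie on the higher side in 5m AS over WT.

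The lists of other phosphate genes and of hormone signals had median log2 ratios of -0.42 and -0.03 in 5m AS over WT, beside -0.12 over all genes. Of 9 phosphate genes past the minimum, 2 were higher and 4 lower in 5m AS than in WT, beside 11.9% and 12% of all genes. Slc20a1, the type III relative of Slc20a2, was at 36.9 scaled CPM in the early treated library, 23.8 in the late treated library, 32.9 in 5m AS, 17.4 in 2m AS, 19.6 in the mixed library and 16.7 in WT. It was 1.97-fold higher in 5m AS than in WT (1.83 to 2.12), where Slc20a2 was at 0.873 (0.818 to 0.932). Of 20 hormone receptor and signal genes, 2 were higher and 2 lower in 5m AS than in WT, no more than the 11.9% and 12% of all genes. Pth1r, the parathyroid hormone receptor, was at 470 scaled CPM in 5m AS and 842 in WT, a ratio of 0.558 (0.551 to 0.567), and between 483 and 566 in the other 4 libraries. Egr1, an immediate early gene induced by FGF23 among other signals, was at 43.5 scaled CPM in 5m AS and 10.1 in WT. Fgf23, the gene of the hormone that klotho serves, had 0 UMIs in every library, which allows up to 0.0407 to 0.0521 scaled CPM.

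By likeness over the 6 libraries, the genes closest to Cyp24a1 among 6755 with at least 20 scaled CPM in a library were Prxl2c (Pearson r of log2 levels 0.991), Cpeb3 (0.988), Suox (0.983), Tnfaip8 (0.980) and Trpm7 (0.974). Their ranges were far narrower than that of Cyp24a1: Tnfaip8 was at 215 scaled CPM in the early treated library, 271 in the late treated library, 106 in 5m AS, 265 in 2m AS, 207 in the mixed library and 209 in WT. With 6 points and 6755 genes, these values are a description. Over spots within libraries, the closest were Gpx3 (mean r 0.388), Slc5a2 (0.361), Gatm (0.350), Slc6a19 (0.338) and Ass1 (0.317), and Slc34a1 had 0.301. By this measure, taken on log2 UMIs per 10000 of a spot, the correlation of Cyp24a1 with Slc34a1 was 0.24 in the early treated library, 0.42 in the late treated library, 0.05 in 5m AS, 0.54 in 2m AS, 0.34 in the mixed library and 0.22 in WT. Over spots thinned to 5000 UMIs, another measure, it was 0.15, 0.27, 0.00, 0.36, 0.23 and 0.11 in that order. In 5m AS, 57 of 1932 thinned spots held a Cyp24a1 UMI. A low r in that library therefore cannot be told apart from the sparse counts. These spots share a library and its depth.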

How the data were processed

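The deposited files were filtered matrices of UMI counts per gene and spot, made by the authors with Space Ranger 1.2.1 or 1.3.1, per the file headers, on mm10, per the submitters' processing notes. Gene coordinates are those of GENCODE M21. Counts were summed per library and divided by the library size times the trimmed mean of M values factor of edgeR 4.0.16 in R 4.3.3, giving scaled CPM, with 95% exact intervals that cover counting error only. With 1 library per group no test was run. A gene was counted as higher or lower at 1.5-fold where either library had at least 5 scaled CPM. A count of 0 allows up to 3 UMIs.

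Clustering used scanpy 1.11.5 with leidenalg 0.10.2 on all spots of 500 or more UMIs (2000 variable genes without the 8 genes and the related lists, 30 components, 15 neighbours, resolution 0.8). Each gene was centred and scaled within its library, a step chosen after seeing that clusters otherwise followed the libraries. Libraries shared 1361 to 3083 barcodes a pair, which are slide positions and not cells. Marker sums, the marker-rich spots and spot shares thinned to 5000 UMIs were taken from the same counts. Figures were drawn with matplotlib 3.10.9.

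The members and lists were chosen with earlier results of these data known. All 8 genes are named; of each related list, up to 2 genes per comparison with the largest ratio among those with at least 20 scaled CPM in either library; and the 5 genes most like Cyp24a1 by each of the likeness measures. Fgf23, Alb and Cps1 are named outside that rule. Alternatives were plain CPM, median-of-ratios factors (DESeq2 1.42.0), leaving out mitochondrially encoded genes, equal weight per spot, deeper spots, means within regions, the mixed library as control, and other folds and minimums. The ratio, its counting interval and the 1.5-fold call were tried on simulated Poisson counts with known fold changes. Normalisation, clustering, thinning, correlations and the motif search were not tried in this way.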

Additional observations from a re-analysis of the deposited data

How the results depend on the processing

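The log2 ratio of Cyp24a1 kept its sign in each of the 9 comparisons under each alternative, except early treated 5m AS against the mixed library in place of WT. Its reported values over WT were 1.73 (2m AS), -3.06 (5m AS), 0.43 (early treated 5m AS), 2.35 (late treated 5m AS) and 0.79 (mixed), with -4.79 for 5m AS over 2m AS, and 3.49 and 5.41 in early and late treated 5m AS over 5m AS. With plain CPM those over WT were 1.63, -2.66, 0.89, 2.79 and 0.91 in that order, and 5m AS over 2m AS was -4.29. Plain CPM also moved the median of all genes, to 0.29 from -0.12 in 5m AS over WT. With each spot weighted equally those over WT were 1.99, -2.86, 0.65, 2.52 and 0.96. Averaged within regions, 2m AS over WT was 1.80, 5m AS over WT -2.83, 5m AS over 2m AS -4.52, and early and late treated 5m AS over 5m AS 3.23 and 5.10. With the mixed library in place of WT the values were 0.94, -3.85, -0.36 and 1.56 in 2m, 5m, early treated and late treated 5m AS. Median-of-ratios factors gave 1.79 in 2m AS over WT, and leaving out mitochondrially encoded genes 2.40 in late treated 5m AS over WT. With the mixed library in place of WT, Gc turned to -1.96 for 2m AS, -1.70 for early treated and -2.07 for late treated 5m AS, and Slc34a1 to 0.08 for 2m AS, 0.02 for early treated and 0.35 for late treated 5m AS. Ratios under 1.5-fold that also turned were Slc34a3 in 2m AS (-0.27) and late treated 5m AS (-0.43), Vdr in late treated 5m AS (0.22) and Slc20a2 in 5m AS (0.07), early treated (0.08) and late treated 5m AS (0.23). The cause was not tested.

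Of the counts of the 8 genes past 1.5-fold, the mixed library in place of WT gave 1 higher for each of 2m AS, 5m AS and early treated 5m AS, with 2 lower for early treated and 1 for late treated 5m AS. A minimum of 20 scaled CPM gave 1 higher in 5m AS over WT, in 5m AS over 2m AS and in early treated 5m AS over WT. A fold of 2 gave 1 higher in 5m AS over 2m AS and in mixed over WT and 3 in early treated over untreated 5m AS, and 0 lower in 2m AS, early treated 5m AS and mixed over WT, 3 in 5m AS over 2m AS and 1 in early over late treated 5m AS. Plain CPM gave 3 lower in 5m AS over 2m AS and 0 in early treated 5m AS over WT, where median-of-ratios factors and leaving out mitochondrially encoded genes gave 2. Averaging within regions gave 2 higher in early treated over untreated 5m AS and 1 lower in late treated 5m AS over WT. No paired analysis was possible because each group had 1 library. No library could be left out of a group, and counting intervals do not cover differences between animals. Depth limits Cyp27b1 in WT, which rests on 64 UMIs, and the mixed library in place of WT moved its log2 ratio in 2m AS to 0.42, against 1.96.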
